A study of Homo sapiens with 12 samples.

Results

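The 9 genes described here, CDH1, CDH2, VIM, FN1, SNAI1, SNAI2, ZEB1, ZEB2 and TWIST1, are markers and regulators of the epithelial-mesenchymal transition (EMT). They were taken by name, and all 9 were found among the 58575 genes with usable counts. The cells were 201B7, an established line of human iPSCs labelled with skin as its tissue of origin, and RNA-Seq covered 12 libraries of poly(A) RNA, 3 for each of 4 culture conditions harvested on Day 5. All cells were maintained in StemFit medium on dishes coated with iMatrix511, and Cond 1 continued this routine as the control. Cond 2 (low nutrient) received StemFit that had first been held at 56 °C for 30 min. Cond 3 (differentiation) received DMEM containing 10% FBS with MEM NEAA and GlutaMax, and Cond 4 (physical stimulus) was pipetted 20 times at passage before routine culture. The study describes the heat-treated medium as given from Day 2 and the FBS medium on Day 4. Cond 2 and Cond 3 thus also differed in the time of exposure, which cannot be told apart from the medium. The 4 conditions come from 1 line. The replicates are called technical in the study's results, while its methods describe the whole arrangement as run in triplicate. The p-values here thus measure only the spread between these libraries.

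EMT is the process by which cells joined in an epithelial sheet loosen their contacts and take on a migratory, mesenchymal form. Human pluripotent stem cells grow as epithelial colonies held together by E-cadherin, the product of CDH1, and cells leave this state by EMT when mesoderm forms in the embryo. SNAI1, SNAI2, ZEB1, ZEB2 and TWIST1 encode transcription factors that bind E-box motifs (CANNTG) and repress epithelial genes, while N-cadherin (CDH2), vimentin (VIM) and fibronectin (FN1) are the usual mesenchymal markers. The miR-200 family of miRNAs targets the ZEB1 and ZEB2 mRNAs, and the ZEB factors repress the miR-200 genes in turn. No small RNA was measured here. The mature sequences are shown because they fall into the 2 seed groups of the best known regulators of ZEB1 and ZEB2, with the seed (bases 2 to 8) in capitals, from RefSeq on GRCh38.p14.
hsa-miR-200b-3p: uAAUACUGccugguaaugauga
hsa-miR-200c-3p: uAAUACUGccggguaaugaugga
hsa-miR-429: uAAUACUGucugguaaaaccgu
hsa-miR-200a-3p: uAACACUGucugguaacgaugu
hsa-miR-141-3p: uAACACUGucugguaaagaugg
The seed AAUACUG is shared by miR-200b-3p, miR-200c-3p and miR-429, and the seed AACACUG by miR-200a-3p and miR-141-3p. MIR200CHG, the long RNA that hosts miR-200c and miR-141, had 6 to 21 reads per library, which is a level of the host RNA and not of a miRNA.

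The libraries held between 16441148 and 21871503 counts, and 17747 genes passed edgeR's filter on low counts, all 9 EMT genes among them. Each library was kept as 1 replicate, because the chi-square per gene between libraries of the same condition was 3.99 to 9.42 over 12 pairs, above sampling noise. The labelled cell type was checked with 12 pluripotency markers (NANOG, SOX2, LIN28A, DNMT3B and others), whose summed level lay between 7611 and 9894 TPM in every library. POU5F1, which encodes OCT4, is not among these markers. The study used that gene as a pluripotency marker and reports it lower under low nutrient. The sum is weighted towards abundant genes, since NANOG made up 45.9 TPM of it in Cond 1, and cannot show the state of each marker. Single markers moved within this sum. At an adjusted p under 0.05 against Cond 1 (edgeR), 4 rose and 6 fell in Cond 2, where 20.9% of all genes changed. TDGF1 fell there from 1299 to 490 TPM. In Cond 3, 5 rose and 4 fell, where 38.4% of all genes changed. NANOG itself, a core pluripotency factor, fell by 1.09 in Cond 2 and by 2.16 in Cond 3 on the log2 scale (adjusted p = 6.43e-10 and 1.40e-14, edgeR) and had a log2 fold change of 0.012 in Cond 4 (adjusted p = 0.991). The libraries are bulk RNA, in which fewer cells of a type and less RNA per cell cannot be told apart.

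On the TPM scale, which divides counts by gene length, CDH1 was the most abundant of the 9 genes in all 12 libraries. In Cond 1 its mean level was 294 TPM ± 12.7 (SD, n = 3), above 98.3% of the genes with a level over 0. CDH2 followed at 61.5 TPM ± 2.72, VIM at 36.5 ± 4.17, FN1 at 30.7 ± 4.46 and SNAI1 at 20.5 ± 6.59. The levels of VIM and FN1 overlapped between libraries, as did those of FN1 and SNAI1, so the order of these neighbours was not larger than their spread. The other regulators were far lower in Cond 1, with means of 0.762 TPM for SNAI2, 0.723 for TWIST1, 0.188 for ZEB1 and 0.0919 for ZEB2. SNAI2 overlapped with TWIST1 between libraries and ZEB1 with ZEB2, while TWIST1 lay above ZEB1 in every library of Cond 1. The sum of SNAI2, ZEB1, ZEB2 and TWIST1 stayed between 1.04 and 2.77 TPM in every library of the study. In Cond 3 the order changed, since VIM, at 78.0 TPM ± 7.05, lay above CDH2, at 55.0 ± 4.27, with no overlap between libraries.

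**Figure D1:**
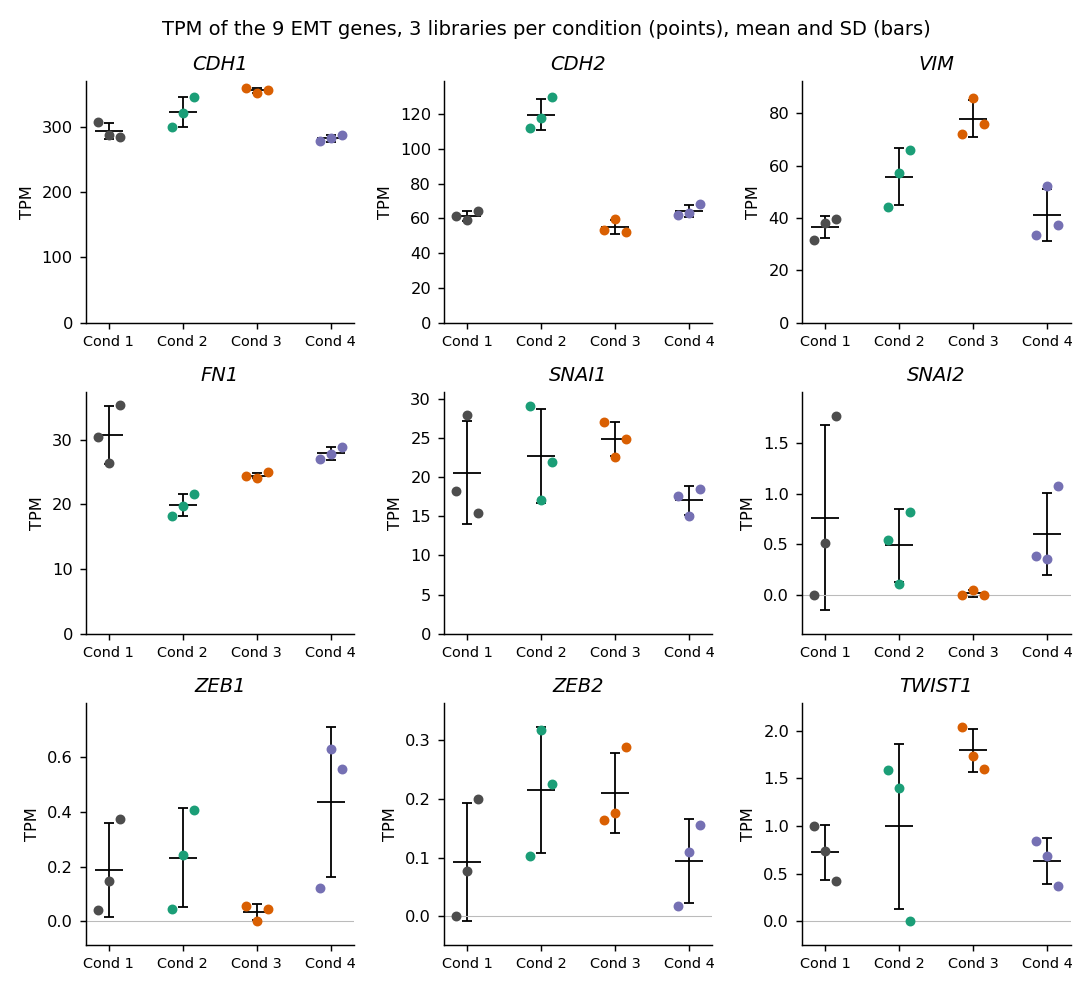
TPM of each of the 9 EMT genes (vertical axes, linear, scaled per gene) in the 4 conditions, with a point per library and bars for the mean and SD of 3 libraries. CDH2 was highest in Cond 2 (112 to 130 TPM), VIM in Cond 3 (72.3 to 85.9 TPM), and SNAI2, ZEB1, ZEB2 and TWIST1 stayed at or below 2.04 TPM in every library.

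The comparisons ask how the EMT genes differed between each culture perturbation and the routine culture. A gene is said to have changed at an adjusted p under 0.05 in edgeR's quasi-likelihood test, adjusted over all 17747 genes, and to be called when the fold change was also above 2. Cond 2, Cond 3 and Cond 4 were each compared with the same 3 libraries of Cond 1, so these comparisons are not independent. In Cond 2, CDH2 and VIM rose and FN1 fell against Cond 1, which is 3 of 9 genes where 20.9% of all genes changed. With the fold threshold 0 of the 9 were called by edgeR, where 4.34% of all genes were, and 3 had an unadjusted p under 0.05, while DESeq2 also called 0. In Cond 3, CDH1 and VIM rose and CDH2, FN1 and SNAI2 fell, 5 of 9 where 38.4% of all genes changed, and 2 were called (VIM higher, SNAI2 lower) against 8.16% of all genes. DESeq2 and the fit without the filter on low counts each called 3 there, ZEB1 being the third. In Cond 4, 0 of 9 changed and 0 were called by edgeR, 0 had an unadjusted p under 0.05 and DESeq2 called 0, where 0.0282% of all genes changed, 0.0169% were called and 6.21% had an unadjusted p under 0.05. Cond 3 against Cond 2 had 6 of 9 changed (38.2% of all genes), CDH1, VIM and FN1 being higher and CDH2, SNAI2 and ZEB1 lower in Cond 3. The last 3 were also called, all lower, where 8.77% of all genes were called and 3.01% were called lower. SNAI2 and ZEB1 had at most 3 reads in each library of Cond 3 and passed the filter only through the other conditions. In fits of only the 6 libraries compared neither passed it, so calling them depended on libraries outside the comparison. Over the 9 genes the median of the log2 fold changes was 0.18 (Cond 2), 0.25 (Cond 3) and -0.07 (Cond 4), against medians of 0.00018, -0.0064 and 0.00033 over all genes tested.

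**Figure D2:**
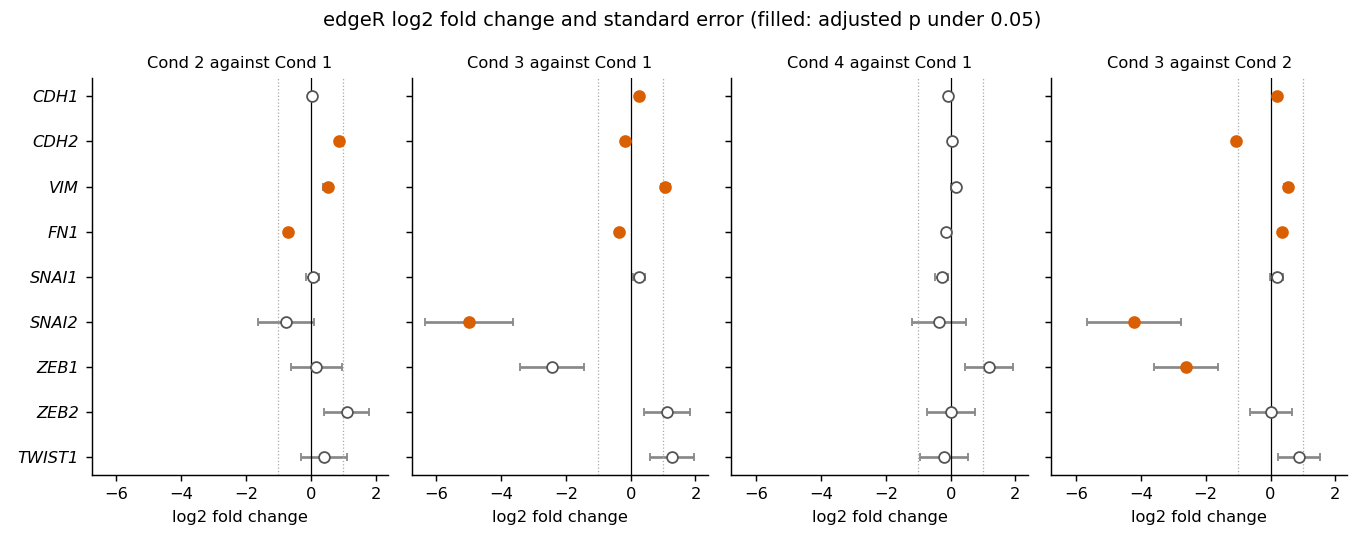
Log2 fold change (horizontal axes) with its standard error for the 9 EMT genes in 4 comparisons, filled where the adjusted p was under 0.05, with dotted lines at a fold change of 2. VIM lay at 1.07 and SNAI2 at -4.99 in Cond 3 against Cond 1, CDH2 at 0.87 in Cond 2 against Cond 1, and no point is filled for Cond 4.

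CDH1 (ENSG00000039068, chr16:68737292-68835537 on the plus strand of GRCh38) encodes E-cadherin, the adhesion molecule of epithelial junctions. Its level was 308, 288 and 284 TPM in the 3 libraries of Cond 1, 300, 321 and 346 in Cond 2, 360, 352 and 356 in Cond 3, and 278, 283 and 288 in Cond 4. The libraries of Cond 3 all lay above those of the other 3 conditions, and those of Cond 4 overlapped with Cond 1. The increase in Cond 3 was a log2 fold change of 0.25 (SE 0.048, adjusted p = 0.000231), or 1.19-fold. Against Cond 2 it was 0.20 (SE 0.048, adjusted p = 0.00172), with an adjusted p of 0.0915 by limma on log2(TPM + 1). Neither Cond 2, at 0.05 (SE 0.048, adjusted p = 0.55), nor Cond 4 passed the test, and Cond 4 was at -0.07 (SE 0.048, adjusted p = 0.885). CDH1 had 8019 to 13473 reads per library, the deepest coverage of the 9 genes.

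CDH2 (ENSG00000170558, chr18:27932879-28177946, minus strand) encodes N-cadherin, the cadherin of neural and mesenchymal cells. Its level was 61.1, 59.0 and 64.4 TPM in Cond 1, 112, 118 and 130 in Cond 2, 53.1, 59.9 and 52.0 in Cond 3, and 61.9, 63.1 and 68.5 in Cond 4. Every library of Cond 2 lay above every other library, and Cond 3 overlapped with Cond 1 in a single library. In Cond 2 CDH2 was 1.83-fold higher than in Cond 1 (log2 fold change 0.87, SE 0.070, adjusted p = 2.32e-09), just short of the fold threshold. In Cond 3 it stood at 0.479 times the level of Cond 2 (log2 fold change -1.06, SE 0.070, adjusted p = 5.87e-11). The decrease against Cond 1 was small in Cond 3, at -0.19 on the log2 scale (SE 0.071, adjusted p = 0.0375), and the adjusted p was above 0.05 when any of Cond 1 replicate 1, Cond 1 replicate 3, Cond 3 replicate 1 or Cond 3 replicate 3 was left out (0.0626 to 0.169). It was also above 0.05 with upper-quartile scaling (0.0635) and with limma on log2(TPM + 1) (0.185). In Cond 4 CDH2 was at 0.05 (SE 0.071, adjusted p = 0.946).

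The increase of CDH2 in Cond 2 came with an increase of markers of neuroectoderm, a tissue in which N-cadherin is the main cadherin. Of 8 neuroectoderm markers 7 were tested and 5 were called higher in Cond 2, where 4.34% of all genes were called in either direction. They were led by SIX3 (5.94 on the log2 scale), RAX (4.29) and HESX1 (3.25), transcription factors of the anterior neural plate and eye field. The summed level of the 8 neuroectoderm markers was 437 to 500 TPM in Cond 1 and 858 to 1124 in Cond 2, and it was 665 to 721 in Cond 3, where CDH2 was not higher. Markers of surface ectoderm moved in the same direction, with 4 of 5 tested called higher in Cond 2, beside the same 4.34% of all genes. Their summed level was 50.1 to 82.6 TPM in Cond 2 against 21.7 to 29.6 in Cond 1, where 4 of the 8 markers of that list were at 0 in all libraries. The part of these cell types in the level of CDH2 was not tested. None of the 8 markers of neuroectoderm was at 0 in all libraries of a condition.

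VIM (ENSG00000026025, chr10:17228241-17237593, plus strand) encodes vimentin, the intermediate filament of mesenchymal cells. Its level was 31.7, 38.2 and 39.5 TPM in Cond 1, 44.2, 57.3 and 65.9 in Cond 2, 72.3, 85.9 and 75.8 in Cond 3, and 33.6, 52.4 and 37.3 in Cond 4. The libraries of Cond 1, Cond 2 and Cond 3 did not overlap, while Cond 4 overlapped with Cond 1 and with Cond 2 through its replicate 2. VIM was 2.10-fold higher in Cond 3 than in Cond 1 (log2 fold change 1.07, SE 0.13, adjusted p = 9.84e-07) and thus the only one of the 9 genes called higher by edgeR in the fit over 12 libraries, in any of the 4 comparisons. The fold change fell just below 2 without Cond 1 replicate 1 (0.97 on the log2 scale) and without Cond 3 replicate 2 (0.99), with adjusted p-values of 3.00e-05 and 1.99e-05. In Cond 2 VIM rose by 0.52 (SE 0.13, adjusted p = 0.00596), with an adjusted p of 0.0525 when Cond 1 replicate 1 was left out, and Cond 3 lay above Cond 2 by 0.54 (SE 0.13, adjusted p = 0.00182). With limma on log2(TPM + 1) in place of edgeR these 2 smaller differences had adjusted p-values of 0.0695 and 0.0942. Of the 31-base words of VIM transcripts, 23.2% also occur in other genes. The largest share, 11.7%, is in VIM-AS1, an overlapping antisense RNA, which had 8 to 29 reads per library against 822 to 2433 for VIM.

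FN1 (ENSG00000115414, chr2:215360440-215436073, minus strand) encodes fibronectin, a glycoprotein of the extracellular matrix. Its level was 30.4, 26.4 and 35.3 TPM in Cond 1, 18.2, 19.8 and 21.6 in Cond 2, 24.3, 24.0 and 25.0 in Cond 3, and 27.0, 27.7 and 28.9 in Cond 4. Unlike those of CDH2 and VIM, its mean was highest in the control, and the libraries of Cond 2 and Cond 3 lay below all those of Cond 1 and Cond 4. FN1 fell by 0.72 in Cond 2 (SE 0.081, adjusted p = 5.11e-07) and by 0.36 in Cond 3 (SE 0.080, adjusted p = 0.00105) on the log2 scale. Cond 3 was above Cond 2 by 0.36 (SE 0.081, adjusted p = 0.00113). Under limma on log2(TPM + 1) the Cond 3 differences had adjusted p-values of 0.0520 against Cond 1 and 0.0628 against Cond 2. In Cond 4 FN1 was at -0.15 (SE 0.080, adjusted p = 0.807).

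The 3 mesenchymal markers therefore did not move together with each other or against CDH1. The ratio of CDH2 to CDH1, each in TPM, was 0.210 ± 0.0146 in Cond 1, 0.372 ± 0.00388 in Cond 2, 0.155 ± 0.0136 in Cond 3 and 0.228 ± 0.00841 in Cond 4 (SD, n = 3). The ratio of VIM to CDH1 was 0.125 ± 0.0192, 0.172 ± 0.0224, 0.219 ± 0.0224 and 0.145 ± 0.0351 in the same order, and that of FN1 to CDH1 was 0.105 ± 0.0171, 0.0616 ± 0.000907, 0.0687 ± 0.00126 and 0.0985 ± 0.00160. Relative to Cond 1 the mean cadherin ratio was thus 1.77 times as high in Cond 2 and 0.737 times as high in Cond 3. The cadherin ratios of Cond 2 (0.367 to 0.375) lay above all other libraries and those of Cond 3 (0.146 to 0.170) below them. These ratios are descriptions, with no test.

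**Figure D3:**
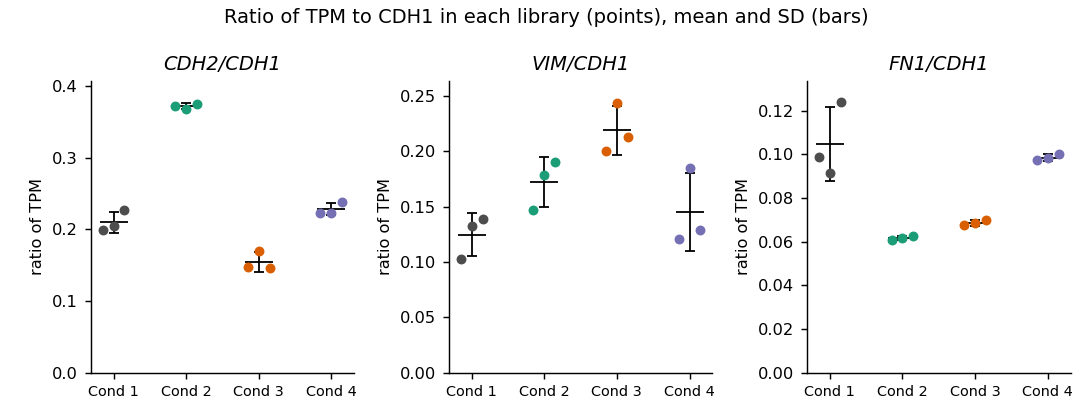
Ratio of the TPM of CDH2, VIM and FN1 to that of CDH1 in each library (points), with mean and SD of 3 libraries per condition, on linear axes from 0. The CDH2 to CDH1 ratio was highest in Cond 2 (mean 0.372) and lowest in Cond 3 (0.155), whereas the VIM to CDH1 ratio was highest in Cond 3 (0.219).

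Regulatory sequence in front of the transcription start is shown for the 2 mesenchymal markers that rose and for ZEB1, because the EMT factors act through E-boxes. The sequences are the 250 bases upstream of a RefSeq start on GRCh38.p14, 5′ to 3′ on the strand of the gene, with E-boxes (CANNTG, which is its own reverse complement) in capitals. RefSeq rows were found for 5 of the 9 genes (CDH2, VIM, FN1, ZEB1 and ZEB2), 12 windows in all.
CDH2, chr18:28177131-28177380, minus strand: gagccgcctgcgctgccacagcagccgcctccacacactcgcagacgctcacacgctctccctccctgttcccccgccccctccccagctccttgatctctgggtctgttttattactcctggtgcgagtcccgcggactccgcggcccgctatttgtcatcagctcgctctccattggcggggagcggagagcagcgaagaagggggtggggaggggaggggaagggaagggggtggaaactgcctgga
VIM, chr10:17227991-17228240, plus strand: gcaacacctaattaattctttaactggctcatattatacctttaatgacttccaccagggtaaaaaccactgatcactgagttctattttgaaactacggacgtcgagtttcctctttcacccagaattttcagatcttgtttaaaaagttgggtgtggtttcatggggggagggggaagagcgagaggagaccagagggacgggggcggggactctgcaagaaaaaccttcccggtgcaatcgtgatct
ZEB1, chr10:31318966-31319215, plus strand: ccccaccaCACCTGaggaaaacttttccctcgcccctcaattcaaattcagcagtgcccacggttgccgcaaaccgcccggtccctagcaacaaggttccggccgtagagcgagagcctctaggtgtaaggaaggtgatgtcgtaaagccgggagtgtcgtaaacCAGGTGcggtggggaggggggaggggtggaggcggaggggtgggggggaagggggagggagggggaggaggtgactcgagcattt
The CDH2 and VIM windows shown hold no E-box, and the single window of FN1 holds none either, while another CDH2 window (chr18:28036642-28036891) holds 1 and 61.8% of 35116 promoter windows of this length hold at least 1. The ZEB1 window shown holds 2, both of the form CACCTG or CAGGTG that is bound by the SNAI and ZEB factors, a form found in 17.5% of all windows and overlapping with CANNTG by construction. It is the window with most sites of this form among the 7 of ZEB1, of which 3 hold no E-box. A match is a description of the letters and not of binding, and no match says only that these letters are not in the window.

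SNAI1 (ENSG00000124216, chr20:49982980-49988886, plus strand), an early repressor of CDH1, was the only one of the 5 transcription factors above 3 TPM. Its level was 18.2, 28.0 and 15.4 TPM in Cond 1, 29.0, 17.0 and 21.9 in Cond 2, 27.0, 22.6 and 24.9 in Cond 3, and 17.6, 15.0 and 18.4 in Cond 4. All conditions overlapped with Cond 1, and the spread within Cond 1 and Cond 2 was as wide as the differences between means. The log2 fold changes against Cond 1 were 0.07 (SE 0.20, adjusted p = 0.866) in Cond 2, 0.26 (SE 0.20, adjusted p = 0.336) in Cond 3 and -0.27 (SE 0.20, adjusted p = 0.886) in Cond 4. SNAI1 rested on 131 to 282 reads per library, more than any of the other 4 factors. Without Cond 1 replicate 2, its highest library in that condition, the difference in Cond 3 was 0.53 with an adjusted p of 0.0420. This was the only 1 of 6 fits with a library left out under 0.05, the highest being 0.784. Of 8 alternative fits of that difference 0 were under 0.05 (0.272 to 0.444).

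SNAI2 (ENSG00000019549, on chromosome 8), the factor also known as Slug and a regulator of neural crest migration, rested on few reads. It had 0, 8 and 34 reads in the libraries of Cond 1, 9, 2 and 13 in Cond 2, 0, 1 and 0 in Cond 3, and 6, 6 and 19 in Cond 4, where a count of 0 allows up to 3 reads. Cond 3 was the lowest condition, yet it overlapped with replicate 1 of Cond 1, which also had 0 reads. The fitted log2 fold change in Cond 3 was -4.99 against Cond 1 (SE 1.4, adjusted p = 0.00562) and -4.22 against Cond 2 (SE 1.4, adjusted p = 0.0240). Scaled to the total counts, 1 read in Cond 3 against 42 in Cond 1 is a 44.9-fold lower level (95% exact interval 7.63 to 1815, counting error only), and 1 against 24 in Cond 2 is 24.6-fold lower (4.01 to 1010). Replicate 3 held 81.0% of the SNAI2 reads of Cond 1, and without it the difference against Cond 1 was -3.35 with an adjusted p of 0.109. Against Cond 2 the adjusted p was 0.0808 to 0.0862 when Cond 2 replicate 3, Cond 3 replicate 1 or Cond 3 replicate 3 was left out. Limma on log2(TPM + 1) gave adjusted p-values of 0.257 and 0.396, and in fits of only the 6 libraries compared SNAI2 did not pass the filter, so that the call was lost.

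ZEB1 (ENSG00000148516, chr10:31318495-31529814, plus strand), a repressor of CDH1 and of the miR-200 genes, showed the same low counts. It had 2, 6 and 19 reads in Cond 1, 2, 12 and 17 in Cond 2, 3, 0 and 2 in Cond 3, and 5, 28 and 26 in Cond 4. Cond 3 was again lowest and overlapped with the lowest library of Cond 1 and of Cond 2. The log2 fold change in Cond 3 was -2.43 against Cond 1 (SE 1.0, adjusted p = 0.0587) and -2.61 against Cond 2 (SE 0.98, adjusted p = 0.0402). Against Cond 1 the adjusted p was 0.0401 by DESeq2 and 0.0169 without the filter on low counts. These were the only 2 of 7 alternative fits under 0.05, the highest being 0.533. Of 6 fits with a library left out, only 1 was under 0.05, without Cond 1 replicate 1 (0.0296), and the highest was 0.401. Replicate 3 held 70.4% of the ZEB1 reads of Cond 1. In total reads Cond 3 had 5 against 27 in Cond 1, or 5.77-fold lower (95% exact interval 2.19 to 19.2, counting error only). Against 31 reads in Cond 2 it was 6.35-fold lower (2.45 to 20.9, counting error only). Between libraries the reads varied more than by counting error, with a variance over mean of 8.78 in Cond 1 and 5.65 in Cond 2. The intervals leave this spread out. The difference against Cond 2 had an adjusted p under 0.05 in only 1 of the 6 fits that left out a library of either condition, the one without Cond 2 replicate 1. The others gave 0.0590 to 0.179, and limma on log2(TPM + 1) gave 0.412. The antisense gene ZEB1-AS1 had 61 to 136 reads per library, more than ZEB1 itself, and 3.69% of the 31-base words of ZEB1 transcripts also occur in it.

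**Figure D4:**
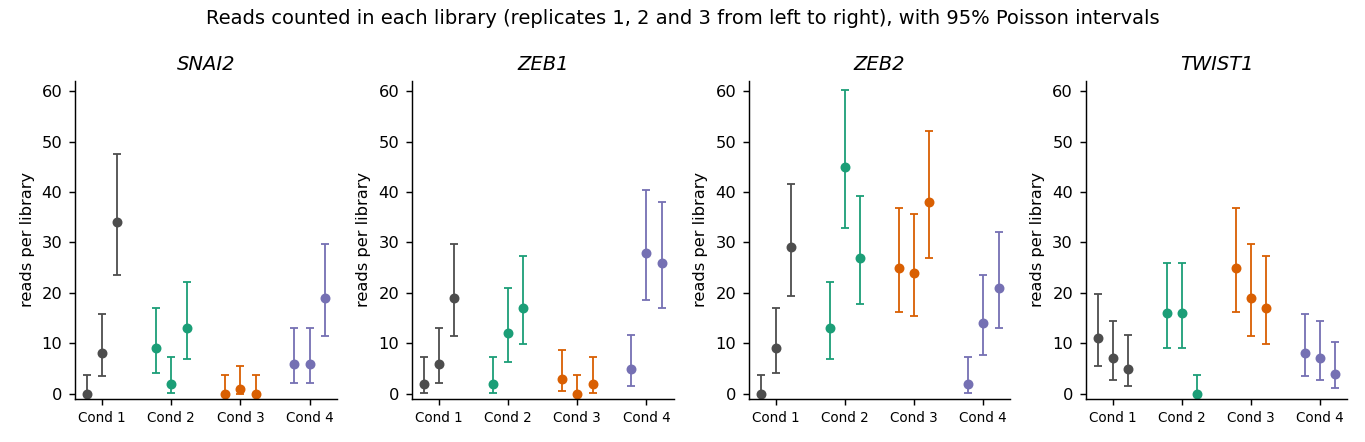
Reads per library (vertical axes, linear) for SNAI2, ZEB1, ZEB2 and TWIST1, replicates 1 to 3 from left to right in each condition, with 95% exact Poisson intervals that cover counting error only. SNAI2 and ZEB1 had 0 to 3 reads in each library of Cond 3, and Cond 1 ran from 0 to 34 reads for SNAI2 and from 0 to 29 for ZEB2.

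ZEB2 (ENSG00000169554, chr2:144364364-144521057, minus strand), a paralogue of ZEB1 with the same E-box specificity, did not follow it. It had 0, 9 and 29 reads in Cond 1, 13, 45 and 27 in Cond 2, 25, 24 and 38 in Cond 3, and 2, 14 and 21 in Cond 4. Cond 3 was the most even condition, at 24 reads or more in every library, but replicate 3 of Cond 1 reached the same range and held 76.3% of the reads of its condition. The log2 fold change was 1.10 in Cond 2 (SE 0.70, adjusted p = 0.307) and 1.12 in Cond 3 (SE 0.70, adjusted p = 0.225), neither of which passed the test. Without Cond 1 replicate 3 the value in Cond 3 was 2.47 with an adjusted p of 0.0307. This was the only 1 of 6 fits with a library left out under 0.05, the highest being 0.556. Of 8 alternative fits of that difference 0 were under 0.05 (0.0555 to 0.430).

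TWIST1 (ENSG00000122691, chr7:19020991-19117636, minus strand), a basic helix-loop-helix factor of cranial mesenchyme and neural crest, had 11, 7 and 5 reads in Cond 1. It had 16, 16 and 0 in Cond 2, 25, 19 and 17 in Cond 3, and 8, 7 and 4 in Cond 4. Every library of Cond 3 lay above every other library of the study, at 1.60 to 2.04 TPM. The log2 fold change of 1.28 against Cond 1 (SE 0.68, adjusted p = 0.146) did not pass the test in the fit over 12 libraries, and the value of 1.28 from only the 6 libraries compared had an adjusted p of 0.0463, which is a call. This was the only 1 of 8 alternative fits under 0.05, the highest being 0.446. With a library left out, 0 of 6 fits were under 0.05 (0.161 to 0.357). In Cond 2 the log2 fold change of TWIST1 was 0.40 (SE 0.71, adjusted p = 0.756). The 4 factors other than SNAI1 thus showed lower counts of SNAI2 and ZEB1 in Cond 3 beside counts of ZEB2 and TWIST1 that were not lower there.

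In Cond 4, where the cells had only been pipetted, the log2 fold changes of the 4 low regulators were -0.36 for SNAI2 (SE 0.84), 1.17 for ZEB1 (SE 0.74), 0.02 for ZEB2 (SE 0.75) and -0.20 for TWIST1 (SE 0.75), with adjusted p-values of 0.861 to 0.999. Their standard errors are so wide that changes of about 2-fold were not detectable at this depth. For CDH1, CDH2, VIM and FN1 the standard errors were 0.048 to 0.13, and the log2 fold changes lay between -0.15 and 0.16.

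Other genes of the pathway were taken from 4 lists of 125 genes in all, of which 110 passed the filter. The epithelial list held 35 genes of junctions and epithelial identity, all tested. In Cond 2, 5 rose and 8 fell (median log2 fold change -0.08), and in Cond 3, 13 rose and 4 fell (median 0.08). ELF3, an epithelial ETS factor, rose by 1.46 in Cond 3 (SE 0.16, adjusted p = 2.17e-07) on the log2 scale, from 4.07 to 11.4 TPM. RAB25, an epithelial GTPase of apical recycling, fell by 1.47 (SE 0.10, adjusted p = 1.28e-10), from 91.4 to 33.5 TPM. CLDN4, a claudin of tight junctions, stood 1.40 above Cond 2 in Cond 3 on the log2 scale (SE 0.13, adjusted p = 1.27e-08).

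The mesenchymal and matrix list held 40 genes, 34 of them tested. In Cond 2, 4 rose and 13 fell (median -0.03), and 3 were called, where 4.34% of all genes were. The 3 called were all lower, namely MMP9 (a matrix protease, -1.60, SE 0.23), THY1 (a surface glycoprotein of stem cells and fibroblasts, -1.31, SE 0.075) and COL6A3 (a collagen VI chain, -1.30, SE 0.15). In Cond 3, 14 rose and 10 fell (median 0.18), with 5 called higher and 3 lower, where 8.16% of all genes were called. POSTN, a matrix protein of fibroblasts, rose from 0.173 to 2.50 TPM (log2 fold change 3.74, SE 0.61, adjusted p = 3.67e-05), S100A4, also called fibroblast-specific protein, from 7.53 to 46.9 TPM (2.61, SE 0.25, adjusted p = 3.12e-08), and TNC, tenascin C, from 3.36 to 11.1 TPM (1.69, SE 0.20, adjusted p = 7.05e-07). None of these 3 overlapped between Cond 3 and Cond 1. THY1 went the other way in Cond 3 as well, at -1.56 (SE 0.076, adjusted p = 3.63e-13).

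Fibroblast markers are given as a list beside VIM. Of 12 markers 7 were tested, and in Cond 3, 4 rose and 1, THY1, fell. With the fold threshold 3 were called higher (POSTN, COL1A2 and PDGFRA) and 1 lower there, where 8.16% of all genes were called. PDGFRA rose from 0.450 to 0.979 TPM (log2 fold change 1.09, SE 0.33, adjusted p = 0.0107, edgeR). In Cond 2, where VIM also rose, 0 of the 7 rose and 3 fell. The summed level of the 12 was 524 to 556 TPM in Cond 1, 405 to 469 in Cond 2, 709 to 748 in Cond 3 and 486 to 524 in Cond 4. COL1A1, a collagen I chain, contributed 246 TPM to the sum in Cond 1 and 436 in Cond 3, and COL1A2, its partner chain, rose from 47.0 to 110 TPM (log2 fold change 1.20, SE 0.066, adjusted p = 2.45e-12). Of the same list, FAP and DPT were at 0 in all 12 libraries, DCN was at 0 in all 9 libraries of Cond 1 to Cond 3, and LUM had at most 2 reads in any library. The part of fibroblast-like cells in the level of VIM was not tested.

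The list of 29 further EMT regulators had 20 genes tested. In Cond 2, 5 rose and 1 fell, and in Cond 3, 5 rose and 4 fell, with medians of 0.09 and 0.10. SOX9, a factor of neural crest and cartilage, rose in Cond 3 from 14.7 to 37.9 TPM (1.33, SE 0.12, adjusted p = 1.53e-08), and SOX4, a SOX factor of progenitor cells, fell from 238 to 110 TPM (-1.13, SE 0.054, adjusted p = 2.41e-13).

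TGF-beta signalling is the classical inducer of EMT, and all 21 genes of its inputs and targets were tested. In Cond 2, 5 rose and 2 fell (median 0.14), among them the ligand TGFB2, which rose from 0.670 to 1.92 TPM (log2 fold change 1.42, SE 0.38, adjusted p = 0.00917, or 0.0539 without Cond 2 replicate 2). In Cond 3, 5 rose and 7 fell (median 0.04), and common target genes were among those that fell. Those that rose were INHBA (1.94, SE 0.51), TGFB1 (0.90), TGFBR3 (0.80), ENG (0.48) and TGFBR1 (0.18), with adjusted p-values of 7.89e-06 to 0.0495. CCN2, a matricellular protein, fell from 464 to 120 TPM (-1.98, SE 0.096, adjusted p = 3.30e-13), and SKIL, a feedback inhibitor of SMADs, from 64.4 to 27.2 TPM (-1.27, SE 0.088, adjusted p = 1.36e-10). The summed level of the list was 910 to 970 TPM in Cond 1, 987 to 1040 in Cond 2 and 501 to 548 in Cond 3, and CCN2 alone made up 464 TPM of it in Cond 1 and 120 in Cond 3. SMAD7, another feedback inhibitor, rose by 0.89 in Cond 2 (SE 0.16, adjusted p = 0.000253) and fell by 0.97 in Cond 3 (SE 0.17, adjusted p = 0.000102) on the log2 scale. Across the 110 tested genes of these 4 lists, 43 changed in Cond 2, where 20.9% of all genes did, 62 in Cond 3, where 38.4% did, and 0 in Cond 4 by edgeR, where 10 had an unadjusted p under 0.05 in Cond 4 and DESeq2 also found 0.

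**Figure D5:**
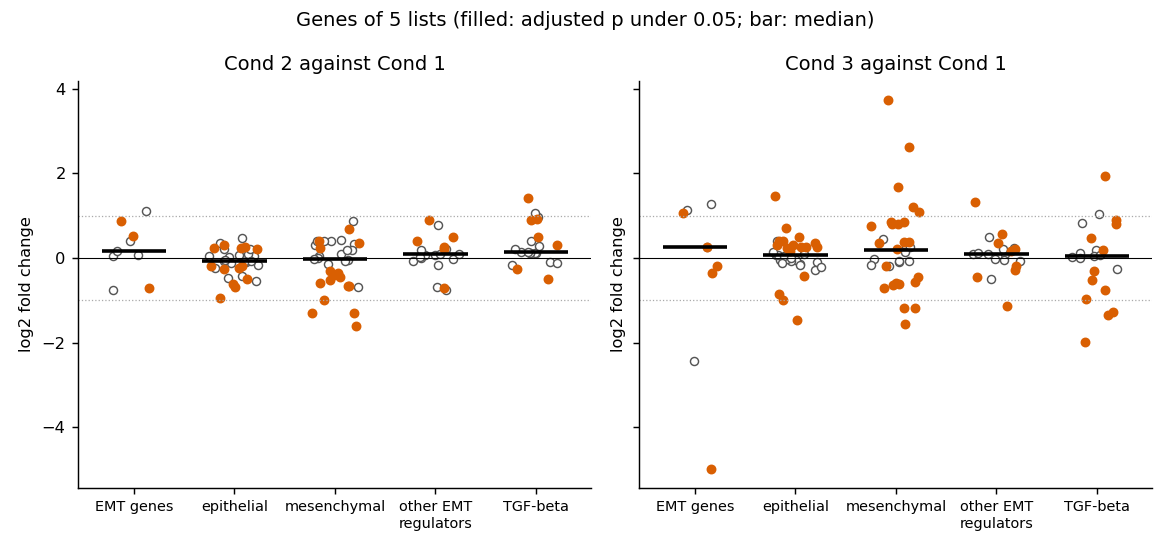
Log2 fold change (vertical axis, linear) of the tested genes of the EMT gene set and 4 related lists in Cond 2 and Cond 3 against Cond 1, a point per gene, filled where the adjusted p was under 0.05, with a bar at the list's median and dotted lines at a fold change of 2. The medians of the 5 lists lay between -0.08 and 0.25, and in Cond 3 the mesenchymal list ran from -1.56 (THY1) to 3.74 (POSTN).

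Genes with a pattern over the 4 conditions closest to that of each called EMT gene were found by the root mean square difference of centred log2(TPM + 1) means, among 15700 or 15701 tested genes at a mean of at least 1 TPM. For CDH2 these were MAP4K1, ACADSB and POU3F1 (0.050 to 0.055). POU3F1, for instance, had means of 40.5, 82.3, 36.6 and 46.9 TPM in Cond 1 to Cond 4. For VIM they were PYY, CNKSR3 and CBFA2T3 (0.023 to 0.040), for SNAI2 KIAA0895L, LINC01278 and MOXD1 (0.0096 to 0.016), and for ZEB1 EIF5A2, C7orf31 and ZNF726 (0.014 to 0.019). With 4 condition means per gene and levels of SNAI2 and ZEB1 near the detection limit, these are descriptions of likeness only.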

How the data were processed

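RNA-Seq data from 12 libraries were used. The authors removed adapters and poor-quality bases (cutadapt 4.1, fastp 0.20.1), aligned reads to GRCh38 (HISAT2 2.1.0), and counted them on genes with featureCounts. Strand setting and annotation release are not given in the sources used here. The authors deposited raw read counts per gene, without normalization, and TPM computed from them by gene length. Of 58580 count lines, 5 held no whole gene row and were left out, and 2042 genes of the TPM table had no counts. Counts were scaled by TMM and tested in one fit over 12 libraries with edgeR 4.0.16 (R 4.3.3), after edgeR's filter on low counts, with Benjamini-Hochberg adjustment. The authors' TPM values gave levels and ratios. The tests were checked on simulated data. Coordinates came from GENCODE release 44.

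The genes and lists were chosen with earlier results of these data known. Genes named beside the EMT genes were, per list and comparison, up to 3 called genes with the largest change and a mean of at least 1 TPM, 3 genes most like each called EMT gene, NANOG, and genes overlapping an EMT gene. A gene that this rule gave for the TGF-beta list is not reported here. SMAD7, COL1A1, FAP, DPT, DCN, LUM and MIR200CHG were also named for their role, and TBXT and the Cond 3 value of TFAP2A after their values were seen. PDGFRA, the other tested mesoderm markers and the TGF-beta genes that rose in Cond 3 were named to show the rest of their lists. Lists of mesoderm and neural crest markers were measured and are given in the closing section. Alternatives were DESeq2 1.42.0, other scalings, no filter, limma 3.58.1 on log2(TPM + 1) or log2(TPM + 0.1), a TPM filter, 6 libraries alone, a replicate block, no fold threshold, and each library left out.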

Additional observations from a re-analysis of the deposited data

How the results depend on the processing

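The 5 large-count results were the rise of CDH2 in Cond 2, its lower level in Cond 3 than in Cond 2, the rise of VIM and CDH1 in Cond 3 and the decrease of FN1 in Cond 2. Each kept direction and adjusted p under 0.05 in 8 alternative fits and in 6 fits with a library left out. The fit with the TPM filter was not among these 8. Genes called numbered 428, 787 and 903 with limma on log2(TPM + 1), 273, 484 and 553 with limma where the TPM reached 1 in each library, and 3701, 6811 and 6777 without a fold threshold, for Cond 2 and Cond 3 against Cond 1 and Cond 3 against Cond 2, where edgeR called 770, 1449 and 1557. For Cond 4 they numbered 3 with edgeR, 14 without the filter, 8 with limma on log2(TPM + 0.1), 1 with the TPM filter and 5 without a fold threshold. EMT genes called numbered 3, 5 and 6 without a fold threshold in these 3 comparisons, 1 in each comparison of Cond 3 with either limma fit (2 and 3 with edgeR), and 1 in Cond 3 against Cond 2 with only 6 libraries. In that fit and the one of Cond 3 against Cond 1 SNAI2 and ZEB1 did not pass the filter, and the latter called 2 EMT genes, VIM and TWIST1, both higher. With each library left out in turn, genes called ranged from 673 to 779, 1285 to 1417, 1396 to 1513 and, for Cond 4, 2 to 3, and EMT genes called from 0 to 0, 1 to 2, 1 to 3 and 0 to 0. The lowest count for Cond 3 against Cond 1 was without Cond 3 replicate 2, and for Cond 3 against Cond 2 without Cond 2 replicate 3, Cond 3 replicate 1 or Cond 3 replicate 3. Directions turned only in differences that passed no test. With limma on log2(TPM + 0.1) SNAI2 was at 0.030 in Cond 2 and 0.39 in Cond 4 and TWIST1 at -0.32 in Cond 2, and with limma on log2(TPM + 1) ZEB2 was at -0.0046 in Cond 3 against Cond 2. With a library left out, the log2 fold change in Cond 2 ran from -0.18 to 0.34 for SNAI1, -1.35 to 0.87 for SNAI2, -0.46 to 1.22 for ZEB1 and -0.090 to 0.97 for TWIST1. In Cond 4 it ran from -0.058 to 0.28 for VIM, -0.44 to 0.0011 for SNAI1, -1.06 to 1.27 for SNAI2, -0.57 to 1.37 for ZEB2 and -0.48 to 0.10 for TWIST1, and in Cond 3 against Cond 2 from -0.30 to 0.40 for ZEB2. The cause of these changes was not tested. The 3 plates of the design are not tied to replicate numbers, and same-numbered libraries did not deviate together (correlations of -0.013 to 0.038 over 18 pairs). With the replicate number as a block, 755, 1439, 1545 and 3 genes and 0, 2, 3 and 0 EMT genes were called, and no call of an EMT gene changed. Counts of 0 to 45 reads limit SNAI2, ZEB1, ZEB2 and TWIST1.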

Other observations

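Markers of mesoderm and neural crest, the tissues that form by EMT in the embryo, were measured beside the EMT genes, with 4 of 8 genes of each list tested. The summed level of 8 primitive streak and mesoderm markers was 61.3 to 78.8 TPM in Cond 1, 33.8 to 36.5 in Cond 2 and 46.4 to 55.9 in Cond 3. Most of this sum was KDR, a receptor of early mesoderm and endothelium that pluripotent cells also express, which fell in Cond 2 from 59.7 to 22.1 TPM (log2 fold change -1.52, SE 0.098, adjusted p = 6.38e-11, edgeR). TBXT, the brachyury factor of the primitive streak, had 0, 3 and 0 reads in Cond 1 and 11, 20 and 18 in Cond 3, where it was called higher by edgeR (log2 fold change 3.77, SE 0.96, adjusted p = 0.00336). Scaled to the total counts this is a ratio of 15.3 (95% exact interval 4.93 to 76.6, counting error only). TBXT had 6, 2 and 7 reads in Cond 2 and 9, 2 and 2 in Cond 4. Cond 3 against Cond 2 did not pass the test for it (1.62, SE 0.76, adjusted p = 0.0976). Of the other tested mesoderm markers, KDR fell in Cond 3 against Cond 1 (-0.67, adjusted p = 5.29e-06). MIXL1 (0.21, adjusted p = 0.834) and TBX6 (0.19, adjusted p = 0.484) did not pass. The 8 neural crest markers summed to 95.5 to 116 TPM in Cond 1 and 70.3 to 82.4 in Cond 2, where TFAP2A, a factor of neural crest and surface ectoderm, rose from 0.142 to 4.25 TPM (4.84, SE 0.46, adjusted p = 3.86e-08) and FOXD3, expressed in pluripotent cells and neural crest, fell from 50.6 to 12.6 TPM (-2.08, SE 0.14, adjusted p = 1.55e-10). In Cond 3 TFAP2A was also called higher, at 0.692 TPM (2.28, SE 0.51, adjusted p = 0.00108, or 0.210 by limma on log2(TPM + 1)), the list summed to 105 to 112 TPM and FOXD3 was at 50.6 TPM, the level of Cond 1. GATA3 and MSX2, markers of surface ectoderm, rose in Cond 2 by 4.66 (SE 0.57, adjusted p = 1.59e-06) and 2.00 (SE 0.64, adjusted p = 0.0263), and MSX2 had adjusted p-values of 0.110 to 0.256 without Cond 1 replicate 1, Cond 1 replicate 2 or Cond 2 replicate 1.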
